A study of Mus musculus with 3 samples.

Results

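The genes described here are the collagens, taken as every gene in the deposited matrices whose symbol is Col, a number, the letter a and a number. The rule finds 44 of the 33696 genes. They are 11 fibrillar, 9 network-forming, 9 FACIT (fibril-associated with interrupted triple helices), 6 microfibrillar and 4 transmembrane chains, and 5 of other types. The rule uses the name only, and no measured value. The study asks when brown adipose tissue arises and from which embryonic cells, and profiled single cells of mouse trunks from the neck to the upper thorax. The groups are embryos of E11.5, of E12.5 and of E13.5 (E, embryonic day), with 1 library each, and each library pooled cells of 3 littermates. All 3 groups are whole dissociated trunks with no treatment or allele named in the labels, so skeletal, muscle, skin, nerve, blood and vessel cells are present together. Cells were released with TrypLE, and the transcripts were counted as unique molecular identifiers (UMIs) at their 3′ ends.

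Collagens are secreted or membrane proteins made of 3 chains wound into a triple helix, and many of them need chains from different genes. Fibrillar collagens build the fibres of skin, tendon, bone and cartilage, and FACIT collagens sit on the surface of those fibres. Network collagens form the sheets of basement membranes, collagen VI forms beaded microfilaments around cells, and transmembrane collagens stay anchored in the cell that makes them. In the embryo, collagen II, IX and XI mark cartilage and its precursors, and collagen I, III and V mark loose and dense connective tissue.

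In these libraries 6130, 6051 and 7324 cells at E11.5, then E12.5, then E13.5 had at least 4000 UMIs and passed the filters, with medians of 12336.5, 10953 and 10192 UMIs. Cells were placed in classes by 6 marker genes per class, none of them a collagen, and a class is reported where it holds at least 50 cells. A class name, such as chondrogenic or tendon, stands for cells like that type by these markers. Levels are in CPM, the UMIs of a gene for every 1000000 UMIs of the class, with exact 95% Poisson intervals. A UMI stands for a captured 3′ end and is not scaled by length, so a level is compared between genes only as a ratio whose change over classes is followed. Each stage has 1 library, so there is no replicate check and no test: every interval covers counting error only, and stage cannot be told apart from library, litter or dissection. At least 1 Y-linked UMI was found in 29.8, 60.3 and 2.36% of cells at the 3 stages, so the mix of male and female embryos differs between the stages, and stage ratios were therefore also taken over the cells that held Xist UMIs but none from Y-linked genes, for classes with enough of them. Of 174 such ratios, 76 lay outside the counting interval of the ratio over all cells and 2 more changed sign. A sum over a class also cannot tell more expressing cells from more RNA per cell. Droplets without a cell show what free RNA contributes, and collagens made up 0.0347, 0.09 and 0.19% of their UMIs at the 3 stages, against 0.133, 0.356 and 0.709% of the UMIs of cells. The 3 libraries shared 10, 16 and 12 cell barcodes by pair.

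Promoter sequences are shown for genes whose chains are compared below. They come from RefSeq on the build GRCm38, whereas the deposited counts were made on GRCm39. Each window covers 250 bases before to 50 bases after a transcription start. The RefSeq table matched 35 of the 44 collagens with 38 windows. Col1a1, Col2a1, Col4a3, Col5a2, Col9a3, Col12a1, Col14a1, Col22a1 and Col26a1 are named only. Col4a1 (ENSMUSG00000031502, chr8:11312777-11313076, minus strand) and Col4a2 (ENSMUSG00000031503, chr8:11312555-11312854, plus strand) start next to each other in opposite directions. Their windows are shown because these chains kept a narrow range of ratios over the classes, and the capitals mark the 78 bases that both windows hold, on opposite strands.
Col4a1: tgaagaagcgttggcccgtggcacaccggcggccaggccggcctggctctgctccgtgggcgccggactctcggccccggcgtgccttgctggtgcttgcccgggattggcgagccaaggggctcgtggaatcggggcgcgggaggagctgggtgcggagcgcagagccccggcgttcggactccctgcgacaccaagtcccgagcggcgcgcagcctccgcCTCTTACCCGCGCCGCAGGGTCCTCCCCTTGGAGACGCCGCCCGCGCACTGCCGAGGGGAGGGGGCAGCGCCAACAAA
Col4a2: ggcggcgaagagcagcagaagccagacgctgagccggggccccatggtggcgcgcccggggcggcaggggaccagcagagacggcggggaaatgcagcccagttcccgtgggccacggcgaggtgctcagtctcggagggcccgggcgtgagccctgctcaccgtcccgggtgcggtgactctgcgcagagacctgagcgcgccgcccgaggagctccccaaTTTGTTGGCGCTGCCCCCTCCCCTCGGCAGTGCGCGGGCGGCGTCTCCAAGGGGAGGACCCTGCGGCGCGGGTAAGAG

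The next windows belong to chains whose ratios differed between classes and stages. Col1a2 (ENSMUSG00000029661, chr6:4505368-4505667, plus strand) encodes the less abundant chain of collagen I. Col9a1 (ENSMUSG00000026147) has 2 starts in the table, at chr1:24177360-24177659 and chr1:24194953-24195252, both on the plus strand, and the 3′ counts do not separate them. Col9a2 (ENSMUSG00000028626) lies at chr4:121039316-121039615, plus strand. Capitals mark the CCAAT box, the GC box GGGCGG and the TATAAA box on either strand, and none of these motifs overlapped another in the windows printed.
Col1a2: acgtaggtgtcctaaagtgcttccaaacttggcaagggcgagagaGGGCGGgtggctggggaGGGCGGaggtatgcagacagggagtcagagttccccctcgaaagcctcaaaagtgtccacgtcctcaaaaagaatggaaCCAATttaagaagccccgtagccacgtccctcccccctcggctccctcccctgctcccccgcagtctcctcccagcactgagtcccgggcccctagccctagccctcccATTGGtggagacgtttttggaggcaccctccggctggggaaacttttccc
Col9a1, upstream start: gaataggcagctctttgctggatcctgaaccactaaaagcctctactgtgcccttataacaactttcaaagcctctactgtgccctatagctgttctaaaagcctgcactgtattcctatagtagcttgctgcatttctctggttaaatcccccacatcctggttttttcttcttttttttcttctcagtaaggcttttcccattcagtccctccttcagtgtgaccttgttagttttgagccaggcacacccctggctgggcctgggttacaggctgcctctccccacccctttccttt
Col9a1, downstream start: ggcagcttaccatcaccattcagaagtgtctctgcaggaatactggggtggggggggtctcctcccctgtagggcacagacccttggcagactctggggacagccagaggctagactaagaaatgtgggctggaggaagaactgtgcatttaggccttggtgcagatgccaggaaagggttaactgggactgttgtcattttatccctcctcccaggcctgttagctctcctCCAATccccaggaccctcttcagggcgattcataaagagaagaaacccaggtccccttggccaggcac
Col9a2: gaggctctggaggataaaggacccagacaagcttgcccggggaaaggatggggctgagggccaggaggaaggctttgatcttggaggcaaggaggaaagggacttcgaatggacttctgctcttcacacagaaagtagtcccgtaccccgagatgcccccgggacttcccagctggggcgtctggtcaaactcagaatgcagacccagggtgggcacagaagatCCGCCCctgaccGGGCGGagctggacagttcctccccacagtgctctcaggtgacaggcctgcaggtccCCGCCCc
CCAAT or its reverse complement was in 34.2% of the 38 collagen windows and in 37.4% of all 32851 windows of the table. GGGCGG was in 60.5% of the collagen windows and 35.7% of all windows, and TATAAA in 13.2% and 13.6%. These are matches of letters in a window of 300 bases, not binding sites.

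Of the 44 collagens, 34 reached 25 CPM in at least 1 of the 42 combinations of class and stage. The 10 that stayed below were Col5a3 and Col24a1 (fibrillar), Col4a3, Col4a4, Col4a6 and Col10a1 (network), Col6a4 and Col6a5 (microfibrillar), and Col7a1 and Col28a1 (other types). Col10a1, the collagen of hypertrophic cartilage, had 3 UMIs in all cells together, and Col4a3, a chain of kidney and other specialised basement membranes, had 14. Col1a1, Col1a2 and Col3a1 together held 51.7, 60.3 and 74.3% of all collagen UMIs of cells at E11.5, then E12.5, then E13.5. The map of levels by class shows these fibrillar chains across all mesenchymal classes and most other members in a few classes each.

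**Figure D1:**
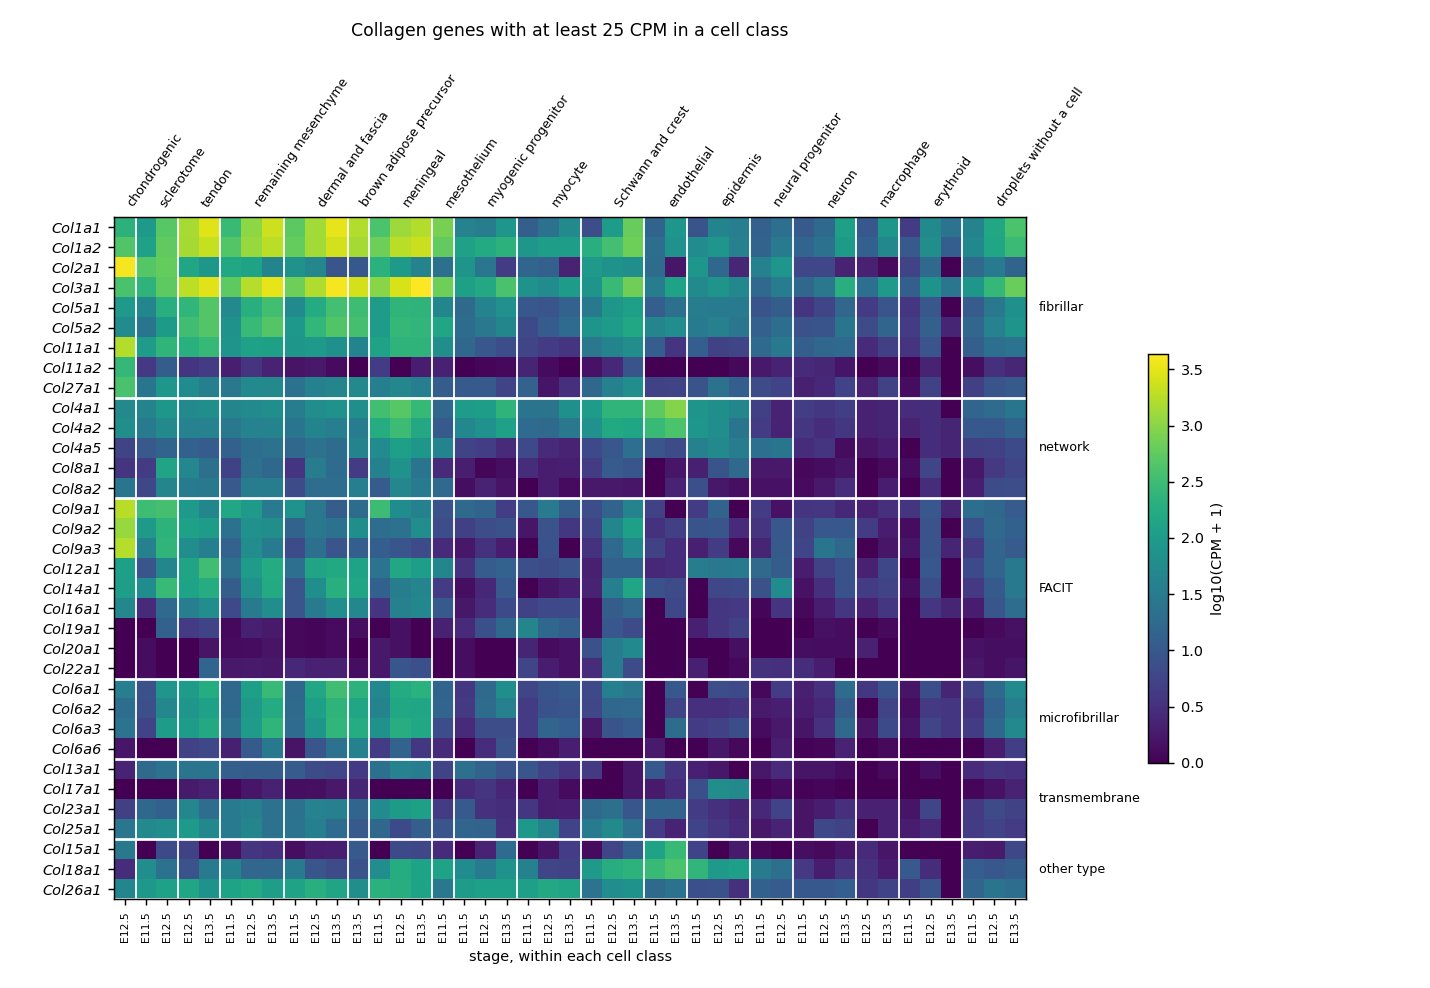
Levels of the 34 collagens that reached 25 CPM (rows, by collagen type) in each cell class at each stage (columns), as log10(CPM + 1), with droplets without a cell in the last columns. Col1a1, Col1a2 and Col3a1 are bright across mesenchyme, whereas Col17a1, Col20a1, Col15a1 and Col11a2 are each brightest in 1 class.

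Collagen I, III and V chains were higher at each later stage in remaining mesenchyme and in dermal and fascia cells. In meningeal cells Col5a1 and Col5a2 were close at E13.5 and E12.5 (230.9 and 239.9 CPM, and 249.5 and 261.8 CPM, with intervals of the ratio that include 0 on the log2 scale). The chains were followed first in mesenchymal cells that met the rule of no single class, called remaining mesenchyme here (1773, 1874 and 1746 cells at E11.5, then E12.5, then E13.5). This is a remainder and not a cell type: its leading genes included Prrx1 and Pdgfra at E11.5 and Gas2, Ecrg4 and Igf1 at E13.5, where none of its own markers led, and how its makeup contributes to the stage differences was not tested. Col1a1, the main chain of collagen I, had 284.5, 1053 and 2279 CPM at the 3 stages. Col1a2, its partner, had 461.5, 1189 and 1830 CPM, and Col3a1, the single chain of collagen III, had 542.8, 1695 and 3190 CPM. Each of the 3 was higher at both later stages, and the log2 ratio of Col1a1 was 1.89 (1.85 to 1.93) for E12.5 over E11.5 and 1.11 (1.09 to 1.14) for E13.5 over E12.5. Collagen V, which sets fibre width, followed with 51.2, 192.1 and 339.8 CPM for Col5a1 and 71.6, 295.4 and 460 CPM for Col5a2. Cells with at least 1 Col1a1 UMI, after every cell was thinned to 4000 UMIs, made up 52, 87.2 and 96.1% of remaining mesenchyme, against 4.51% of erythroid cells at E12.5 and 9.81% of macrophages at E13.5, cell types that should lack the gene. The share of cells with a UMI was higher at the later stages, as the summed level was.

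Collagen VI differed more than collagen I between E11.5 and E12.5. Col6a1, Col6a2 and Col6a3, whose products assemble into 1 microfilament unit, had 15.5, 15.7 and 21 CPM in remaining mesenchyme at E11.5, 112.8, 91.7 and 101.5 CPM at E12.5, and 278.6, 174.1 and 240.9 CPM at E13.5. The log2 ratios for E12.5 over E11.5 were 2.86 for Col6a1, 2.55 for Col6a2 and 2.27 for Col6a3, each above the 1.89 of Col1a1. Col6a6, a further collagen VI chain similar to Col6a3, had 1.07, 9.74 and 28.2 CPM. Its highest level was 38.5 CPM in cells with brown adipose precursor markers at E13.5 (204 brown adipose precursor-like cells), 1.44 log2 units (1.14 to 1.72) over other cells. The cells found by the same markers at E11.5 and E12.5 were led by Afp and Apoa2 and by Gata6 and Msx1, so they carry no name here.

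Several FACIT chains were also higher, and the type as a whole was not uniform. Col14a1, which coats fibres of skin and tendon, had 10.8, 67.8 and 167.5 CPM in remaining mesenchyme, with log2 ratios of 2.65 (2.46 to 2.85) and 1.31 (1.21 to 1.40). Col12a1, a chain of dense connective tissue, had 21, 99.4 and 173.6 CPM, and Col16a1 had 5.32, 29.6 and 60.8 CPM. All 3 were higher at each later stage. Col9a1 was lower at each later stage, with 148.9, 88 and 31.9 CPM.

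Of the 44 collagens, 33 held enough UMIs (50 over both stages) to be compared in remaining mesenchyme. Of these, 19 were at least 2-fold higher at E12.5 than at E11.5, where 9.66% of all genes were. Only Col18a1 was at least 2-fold lower, where 1.91% of all genes were: Col18a1, a heparan sulfate proteoglycan of basement membranes, had 14.7 CPM at E12.5 and 38.5 CPM at E11.5. The 10 with the largest ratios were Col6a6, Col6a1, Col14a1, Col6a2, Col16a1, Col8a1, Col6a3, Col12a1, Col9a3 and Col5a2. Between E12.5 and E13.5, 8 of 35 were at least 2-fold higher (Col1a1, Col5a3, Col6a1, Col6a3, Col6a5, Col6a6, Col14a1 and Col16a1), where 2.5% of all genes were. At E13.5 the 4 that were at least 2-fold lower than at E12.5 were Col2a1, Col9a1, Col11a2 and Col25a1, where 2.58% of all genes were. The median log2 ratio of the collagens was 1.63 and then 0.129, beside 0.126 and −0.105 for all genes. Scaling by the median ratio over genes instead of UMI totals shifted log2 ratios by 0.117 for E12.5 over E11.5 and by −0.0992 for E13.5 over E12.5, and the second comparison then held 10 higher and 2 lower collagens in place of 8 and 4.

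**Figure D2:**
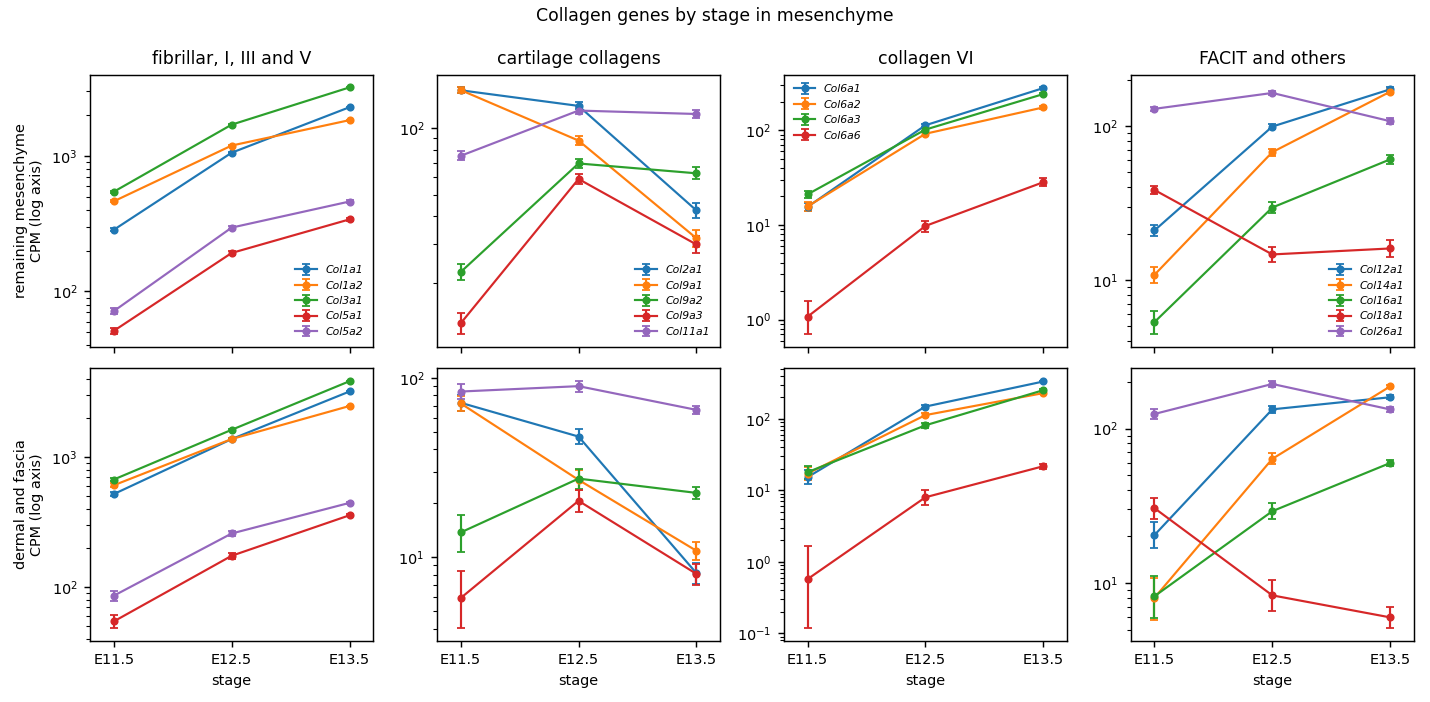
Levels in CPM on a log axis at E11.5, then E12.5, then E13.5 in remaining mesenchyme (top row) and in cells with dermal and fascia markers (bottom row), with exact 95% Poisson intervals. Fibrillar chains I, III and V, collagen VI and Col12a1, Col14a1 and Col16a1 are higher at each later stage, while Col2a1 and Col9a1 are lower, with 42.6 and 31.9 CPM at E13.5 against 148.6 and 148.9 CPM at E11.5 in remaining mesenchyme.

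Cells with dermal and fascia markers gave higher levels of collagen I, III and V chains at each later stage too (324, 623 and 2307 cells). Their leading genes at E11.5 included Lum, Wnt2 and Pitx1, with Gata6, a marker of another class. At E12.5 the leading genes held 1 marker of the class and 1 of another class, and at E13.5 they included Twist2, Dpt and Crabp1. The leading genes thus differed between stages, and how the makeup of the class contributes to the stage differences was not tested. Col1a1 had 521.3, 1382 and 3213 CPM at E11.5, then E12.5, then E13.5, and Col3a1 674.7, 1629 and 3855 CPM. The 3213 CPM of Col1a1 and 2484 CPM of Col1a2 at E13.5 were the highest of any class. Of the collagens compared, 17 of 30 were at least 2-fold higher at E12.5 than at E11.5 (7.75% of all genes) and 2 at least 2-fold lower (1.61%). At E13.5, 11 of 32 were at least 2-fold higher than at E12.5 (3.72% of all genes) and 4 lower (2.81%). Col2a1 was 2.53 log2 units lower at E13.5 than at E12.5 (8.15 CPM at E13.5 and 47.1 CPM at E12.5). Col7a1, which anchors the epidermis to the dermis, had 16.2 CPM in these cells at E13.5 (14.7 to 17.8) and 7.89 CPM at E12.5. Epidermis at E12.5 had 14.7 CPM (9.09 to 22.5), and the 2 intervals overlap.

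Genes that modify, carry and process collagen were also compared in remaining mesenchyme. At E12.5 over E11.5, 4 of 14 genes for prolyl and lysyl hydroxylation, 5 of 11 for chaperones and export, 3 of 6 for propeptide processing, 2 of 4 for crosslinking and 1 of 6 receptors were at least 2-fold higher, beside the 9.66% of all genes. None of these 5 lists held a gene at least 2-fold lower, and their median log2 ratios were 0.728, 0.962, 0.57, 0.931 and 0.507, beside 0.126 for all genes. Lox, which crosslinks collagen fibres, had 53.5 CPM at E12.5 and 8.28 CPM at E11.5. Adamts2, which trims the amino-terminal propeptide, had 17.5 CPM at E12.5 and 2.31 CPM at E11.5. Crtap, part of the prolyl 3-hydroxylation complex, had 65.2 CPM at E12.5 and 24.5 CPM at E11.5, and Creb3l1, a transcription factor for secretion, 28.1 CPM at E12.5 and 7.95 CPM at E11.5. Serpinh1, the collagen chaperone HSP47, was already abundant and differed less, with 1234 CPM at E12.5 and 933.8 CPM at E11.5. Between E12.5 and E13.5 the counts were 1 of 15, 1 of 11, 1 of 6, 0 of 4 and 0 of 6, beside 2.5% of all genes.

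Cartilage collagens had their highest levels in chondrogenic cells (117 cells at E12.5, with too few to report at the other stages, 4 at E11.5 and 19 at E13.5). Col2a1, the main fibrillar chain of cartilage, had 3941 CPM there and 69.9 CPM in the other cells of the library. The collagen IX chains Col9a1, Col9a2 and Col9a3 had 1763, 1210 and 1727 CPM, and the collagen XI chain Col11a1 had 1639 CPM. Col11a2, its partner, was the most restricted of them, with 264.3 CPM in chondrogenic cells and 1.68 CPM in the others, a log2 ratio of 7.30 (7.01 to 7.59). Col27a1, a fibrillar chain of growing cartilage, had 390.7 CPM in chondrogenic cells and 28.4 CPM in the others. Col1a1 and Col3a1 were lower there, with 214.2 and 389.4 CPM in chondrogenic cells against 595.9 and 901.6 CPM in the others. In all, 10 of 39 collagens were at least 2-fold higher in chondrogenic cells (6.83% of all genes), the other 3 being Col14a1, Col15a1 and Col16a1. FACIT chains made up 39% of the collagen UMIs of chondrogenic cells (38.3 to 39.7), the highest share of any class, as the plot of shares by type shows.

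Sclerotome, the somite derivative that forms vertebrae, held the next highest levels of Col2a1 and of the collagen IX chains at E12.5. Col2a1 had 608.4 CPM in sclerotome at E12.5 (69 cells) against 483.1 CPM at E11.5 (212 cells). Col9a1 had 368.9 CPM at E12.5 against 325.1 CPM at E11.5, and Col9a3 239.5 CPM at E12.5 against 37.7 CPM at E11.5. Col2a1 and Col9a1 thus stood near their E12.5 level at E11.5, whereas Col9a3 was 2.67 log2 units higher at E12.5. Col8a1, a short network chain, reached its highest level in sclerotome at E12.5, with 132.1 CPM at E12.5 against 3.34 CPM at E11.5, and so did Col14a1, with 295.9 CPM at E12.5 against 58.6 CPM at E11.5. Tendon cells (157 at E13.5, 89 at E12.5) had 334.1 CPM of Col12a1 at E13.5 against 131.3 CPM at E12.5 and 458.2 CPM of Col5a1 at E13.5 against 251.6 CPM at E12.5, and their E13.5 levels of both genes were the highest of any class.

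**Figure D3:**
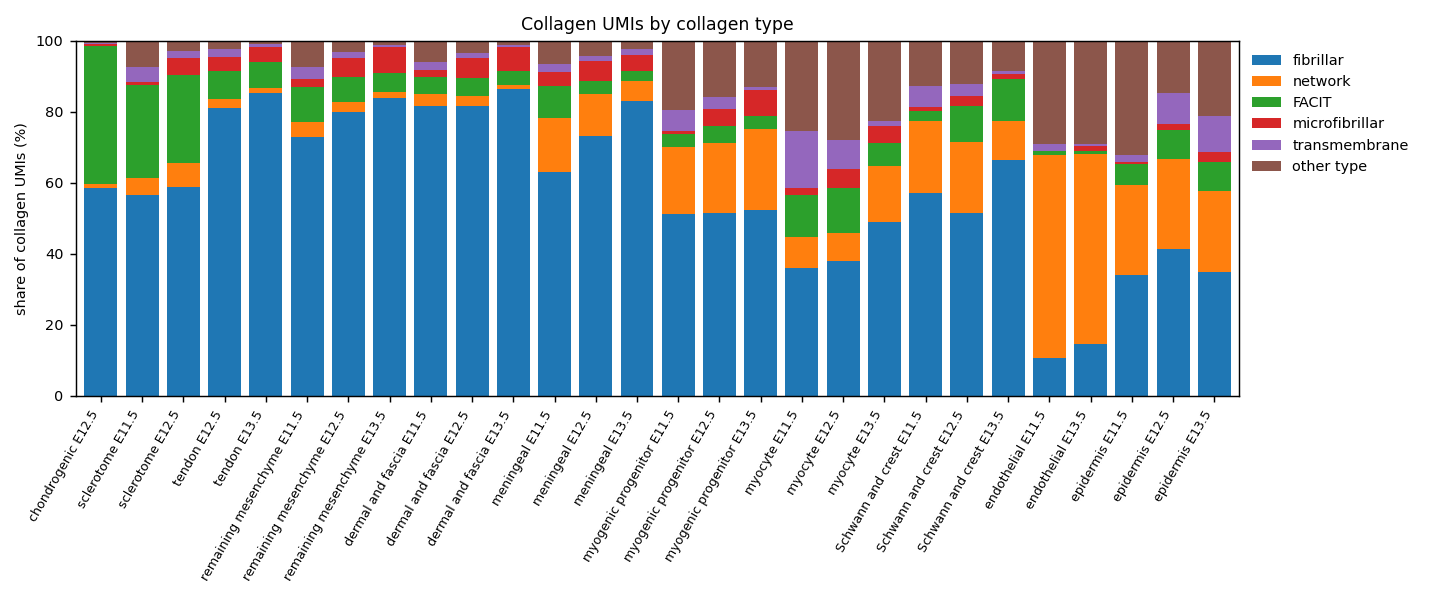
Share of collagen UMIs (%) held by each collagen type in classes with 50 or more cells at each stage, as stacked bars that sum to 100. Fibrillar chains hold most UMIs in mesenchyme, FACIT chains reach 39% in chondrogenic cells, and network chains are the largest part in endothelial cells.

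The 3 chains of collagen IX, whose products form 1 heterotrimer, did not keep a fixed ratio of transcripts. In remaining mesenchyme the Col9a2 to Col9a1 ratio was 0.15 (0.137 to 0.165), 0.788 and 1.97 (1.77 to 2.19) at E11.5, then E12.5, then E13.5, and the Col9a3 to Col9a1 ratio was 0.0882, 0.67 and 0.937. In chondrogenic cells the ratios were 0.686 and 0.979 at E12.5. Meningeal cells at E11.5 were the furthest from them: Col9a1 had 313.3 CPM with 839 UMIs, while Col9a2 and Col9a3 had 51 and 30 UMIs, so the ratios were 0.0608 and 0.0358. Meningeal Col9a1 was 2.46 log2 units lower at E12.5, with 56.9 CPM at E12.5 and 313.3 CPM at E11.5. Droplets without a cell had ratios of 0.339, 1.02 and 1.24 for Col9a2 to Col9a1 at the 3 stages, so free RNA moved in the same direction. Neurons stood at the other end. Col9a3 had 4.76, 25.4 and 14.8 CPM in neurons and Col9a1 2.55, 2.79 and 1.58 CPM, a ratio of 9.08 (6.46 to 13.1) at E12.5, where droplets without a cell had 0.888 (0.688 to 1.15). Col9a3 in neurons at E12.5 was above the 14.4 CPM of the droplets, and Col9a1 was below their 16.2 CPM.

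Collagen I chains were furthest from each other in peripheral glia. Collagen I protein usually holds a pair of Col1a1 chains with 1 Col1a2 chain. The Col1a2 to Col1a1 ratio of UMIs was 1.62, 1.13 and 0.803 in remaining mesenchyme at E11.5, then E12.5, then E13.5 and 1.17, 1 and 0.773 in dermal and fascia cells. In Schwann and neural crest cells, the glia of peripheral nerves and their precursors, it was 29.8 (19.9 to 46.9) at E11.5, 3.6 (2.95 to 4.42) at E12.5 and 1.11 (1.01 to 1.21) at E13.5. At E11.5 these 143 cells held 716 UMIs of Col1a2 and 24 of Col1a1. Col1a2 had 189.6, 360.6 and 692.4 CPM there at the 3 stages and Col1a1 6.36, 100.1 and 625.9 CPM. The log2 ratio of Col1a1 was 3.98 (3.34 to 4.67) for E12.5 over E11.5, against 0.93 for Col1a2. Col1a1 in these cells was below its level in droplets without a cell at E11.5 and E12.5, and above it at E13.5. At the 2 earlier stages the ratio thus rests on Col1a1 at a level no higher than that of free RNA. Keeping the called doublets moved the Col1a2 to Col1a1 ratio at E11.5 to 16.4. Subtracting free RNA left almost no Col1a1 in these cells at E11.5 when the free RNA share was estimated from the 40 macrophages of that library. Those are fewer than the 50 cells required of a class. In thinned cells, 32.2, 40.5 and 25% of Schwann and neural crest cells had a Col1a2 UMI without a Col1a1 UMI, against 0.826, 5.26 and 3.51% of erythroid cells. Median depths before thinning were 25233, 13603 and 9619 UMIs in Schwann and neural crest cells and 25616, 18543 and 12155 UMIs in erythroid cells. The summed level of the 6 general mesenchyme markers in Schwann and neural crest cells was 26.7, 107 and 112 CPM, higher at the stages where Col1a1 was higher, against 1374, 1346 and 1056 CPM in remaining mesenchyme, and its part in the Col1a1 levels was not tested. Other classes had more UMIs of Col1a2 than of Col1a1 too. The ratio was 2.98, 5.05 and 2.68 in myogenic progenitors and 7.24, 4.92 and 2.02 in myocytes. It was 7.14 (3.22 to 18.7) in epidermis at E11.5, from 50 and 7 UMIs, and 2.08 (1.82 to 2.38) in chondrogenic cells at E12.5. Motor neurons at E11.5 held 17 and 2 UMIs and erythroid cells at E11.5 held 30 and 11. Droplets without a cell had 1.21, 0.921 and 0.742. Col1a1 in myogenic progenitors, myocytes and epidermis was below the level of those droplets at each stage.

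**Figure D4:**
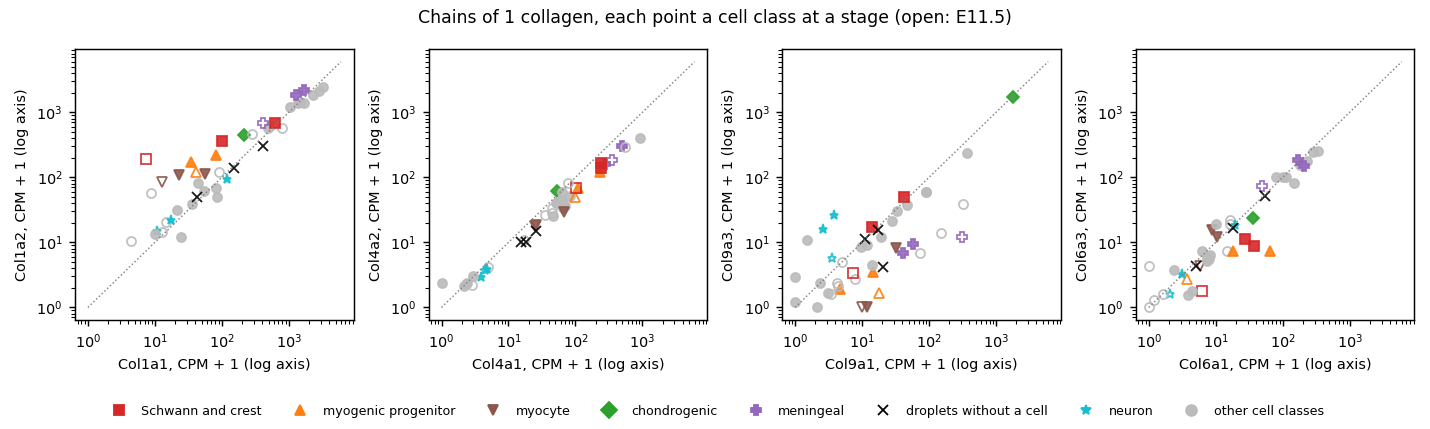
Levels of chains that share a collagen, each point a class at a stage, with CPM + 1 on log axes and a dotted line of equal levels; open symbols are E11.5 and crosses are droplets without a cell. Schwann and neural crest cells, muscle cells, chondrogenic cells and epidermis at E11.5 (an open grey point) lie above the line for Col1a2 against Col1a1, all classes lie along 1 band for Col4a2 against Col4a1, and neurons and meningeal cells lie on opposite sides for Col9a3 against Col9a1.

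Col4a1 and Col4a2, which form the scaffold of every basement membrane, stayed together, and Col4a5 did not follow them. Over the 42 combinations of class and stage, the levels of Col4a2 and Col4a1 had a rank correlation of 0.965, given as a description since classes of 1 library share depth and free RNA. The ratio lay between 0.422 and 1.19 in the 34 combinations with at least 50 UMIs, a narrower range than that of Col1a2 to Col1a1 (0.578 to 29.8). These are the genes whose promoter windows share 78 bases. Col4a6 and Col4a5, also neighbours in the gene table, had a rank correlation of 0.833 and ratios of 0.025 to 0.243 in the 15 combinations with at least 50 UMIs. Col4a5 parted from Col4a1: neural progenitors at E12.5 had 25.1 CPM of Col4a5 and 1.31 CPM of Col4a1, whereas endothelial cells at E11.5 had 8.09 CPM of Col4a5 and 539.7 CPM of Col4a1. Endothelial cells held no Col4a6 UMI at E13.5 or E11.5, where 3 UMIs would be 1.94 and 2.43 CPM. Collagen VI chains were as close in rank, with a correlation of 0.97 for Col6a2 and Col6a1, which are neighbours in the RefSeq gene table, and ratios of 0.435 to 1.12. Col6a3, elsewhere in the genome, had a rank correlation of 0.936 with Col6a1 and ranged from 0.0992 to 1.85 of it. The low end was in myogenic progenitors at E13.5, with 6.33 CPM of Col6a3 and 63.8 CPM of Col6a1. Col5a2 and Col5a1, which are not neighbours, had a rank correlation of 0.955 and ratios of 0.504 to 3.93. Col5a2 and its neighbour Col3a1 had a rank correlation of 0.917. Col4a6 held only 400 UMIs in all cells together, and the part of gene position in these correlations was not tested.

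Among the classes reported, endothelial cells had the highest levels of Col4a1, Col4a2, Col15a1 and Col18a1, collagens of basement membranes. Mural cells were too few to report, with 16, 30 and 46 cells at E11.5, then E12.5, then E13.5. Col4a1 had 906.6 and 539.7 CPM in endothelial cells at E13.5 and E11.5 (75 and 55 cells, with too few at E12.5), against 77.3 and 42.7 CPM in other cells. Col18a1 had 411.5 and 287.3 CPM in endothelial cells at E13.5 and E11.5, against 25.5 and 37.8 CPM in other cells. Col15a1, the relative of Col18a1 found around vessels and muscle, had 279.3 and 123 CPM in endothelial cells at E13.5 and E11.5, and 3.32 and 0.325 CPM in other cells. These genes and Col4a2 were the 4 of 40 collagens at E13.5 and the 4 of 35 at E11.5 at least 2-fold higher in endothelial cells, where 10.5 and 11.1% of all genes were. The collagens' share is thus close to that of all genes, and the log2 ratio of 8.56 (7.98 to 9.20) for Col15a1 at E11.5 was the largest of any collagen in any class against the other cells.

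Epidermis combined basement membrane and anchoring collagens. Col17a1, the transmembrane collagen of hemidesmosomes, had 6.73, 60.9 and 53.9 CPM in epidermis at E11.5, then E12.5, then E13.5 (58, 93 and 283 cells), while other cells had 0.811 CPM of it at E13.5 and 0.564 CPM at E12.5. Col18a1 had 248.9, 90.2 and 110.6 CPM in epidermis, and Col4a5, an X-linked chain of skin and kidney basement membrane, 38.1, 52.5 and 33.8 CPM. At least 2-fold higher in epidermis than in other cells were 8 of 35, 6 of 39 and 4 of 40 collagens, where 10.7, 8.69 and 8.06% of all genes were. Col18a1 and Col4a5 were among them at every stage. Of the 8 at E11.5, Col4a4, Col4a6, Col7a1 and Col15a1 had only 2, 5, 3 and 4 UMIs in epidermis. The interval of the Col15a1 log2 ratio (−0.751 to 2.523) includes 0. The share of collagens at E13.5 is close to that of all genes.

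Meningeal cells (192, 149 and 77 cells) are named for the coverings of the spinal cord. They were rich in collagens against the other cells of their library. Among mesenchymal classes this was not particular to them. Their leading genes at E11.5 included Vtn and Aldh1a2, with Rgs5, a marker of mural cells. At E13.5 the leading genes included Ptgds and Slc6a13, with Foxc2, a marker of sclerotome. How the makeup of the meningeal class contributes to its counts was not tested. At least 2-fold higher there were 24 of 35, 23 of 39 and 13 of 40 collagens at E11.5, then E12.5, then E13.5, where 7.73, 8.59 and 11.9% of all genes were. These counts add 0.5 UMIs to each sum, and with nothing added they were 23 of 35 at E11.5, since Col7a1 with 3 UMIs is then below 2-fold, and 14 of 40 at E13.5. By the first count remaining mesenchyme had 22 of 35, 17 of 39 and 7 of 40 (4.78, 5.8 and 3.38% of all genes). Dermal and fascia cells had 7 of 35, 11 of 39 and 15 of 40 (3.41, 3.9 and 4.97%). In meningeal cells Col23a1, a transmembrane collagen, had 55.3, 95.7 and 114.5 CPM at the 3 stages. Col13a1, a transmembrane collagen of cell adhesions, had 20.9, 40.6 and 32.3 CPM. Col4a5 had 56, 112 and 83.2 CPM and Col8a2 10.5, 46.7 and 31.3 CPM. The levels of Col23a1 and Col4a5 were the highest of any class, whereas the interval of Col8a2 at E12.5 (38 to 56.8) overlaps that of sclerotome at E12.5 (30.1 to 62.2). Col3a1 reached its highest level of all classes there, 4358 CPM at E13.5. Col26a1, a secreted collagen, had 212.5 CPM in meningeal cells at E11.5 and 194.3 CPM in dermal and fascia cells at E12.5, and 112.3, 154.4 and 133 CPM in myocytes and 129.6, 164.4 and 107.7 CPM in remaining mesenchyme.

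Schwann and neural crest cells had more collagens at higher levels at the later stages. At E12.5, 13 of 19 were at least 2-fold higher than at E11.5 (5.82% of all genes) and none was at least 2-fold lower (2.18%). The 13 include Col1a1, which was below its level in droplets without a cell at both stages. The general mesenchyme markers in these cells had 26.7 CPM at E11.5 and 107 CPM at E12.5, and their part in the count was not tested. At E13.5, 6 of 20 were at least 2-fold higher than at E12.5 (2.23%) and 2 lower (1.39%). Col20a1, a FACIT chain, had 6.89, 34.4 and 53.5 CPM in these cells and no more than 1.36 CPM in any other class. Col22a1, a FACIT chain of tissue junctions, had 1.85, 34.4 and 5.87 CPM there, so it was high at E12.5 alone, with 44 UMIs in 79 cells, and tendon cells at E13.5 had 14.4 CPM. Col28a1, described in mice at nodes of peripheral nerves, had 0.265, 4.69 and 6.52 CPM in Schwann and neural crest cells and at most 0.642 CPM elsewhere. The Schwann and neural crest levels of Col28a1 rest on 1, 6 and 10 UMIs. Against other cells of the same library, 3 of 35, 9 of 39 and 12 of 40 collagens were at least 2-fold higher, where 4.72, 8.49 and 10.6% of all genes were. Col4a1, Col4a2 and Col18a1 were among them at every stage. Some others rest on few UMIs in the class. Of the 9 at E12.5, Col4a4, Col19a1 and Col5a3 had 3, 11 and 12 UMIs. Of the 12 at E13.5, Col4a4, Col19a1 and Col22a1 had 9 UMIs each and Col11a2 had 12.

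Muscle cells differed between progenitors and differentiating cells. Col19a1, a FACIT chain of developing muscle, had 44.9, 15.8 and 11.45 CPM in myocytes at E11.5, then E12.5, then E13.5, and 1.74, 6.86 and 15.7 CPM in myogenic progenitors (136, 239 and 313 cells). Myocytes were thus higher at E11.5, whereas at E13.5 the intervals overlap (8.32 to 15.4 in myocytes and 12.6 to 19.4 in progenitors). Col25a1, a transmembrane collagen needed for the innervation of muscle, had 85.7, 41.7 and 4.43 CPM in myocytes (78, 171 and 234 cells). The other cells had 16.8, 25.4 and 13.7 CPM, so myocytes were below them at E13.5. Tendon cells had 48.5 CPM of Col25a1 at E13.5 and 90.9 CPM at E12.5. At E12.5 sclerotome had 60.6 CPM, Schwann and neural crest cells 51.6 CPM and remaining mesenchyme 44.5 CPM, so Col25a1 was not particular to muscle and tendon. Col2a1 in myogenic progenitors had 76, 25.5 and 3.44 CPM, while Col4a1 had 97.6, 106.4 and 232.8 CPM and Col6a1 2.78, 17.2 and 63.8 CPM. Col15a1 had 0, 7 and 99 UMIs in myogenic progenitors, or 17.9 CPM at E13.5.

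In neural progenitors most collagens were scarce, with 0.0402% of their UMIs at E12.5 (393 cells) and 0.0238% at E11.5 (1101 cells). Col2a1 had 80.1 CPM at E12.5 and 38.9 CPM at E11.5, and Col14a1 56.3 CPM at E12.5 and 7.04 CPM at E11.5. The E12.5 levels of both were above the 29.9 and 9.68 CPM of droplets without a cell at E12.5. Col1a1 and Col3a1 in neural progenitors, neurons, macrophages and erythroid cells were below the level of those droplets at each stage, and are read as background. In neurons Col1a1 had 9.65, 16.7 and 117.8 CPM, against 40.9, 152 and 407 CPM in the droplets.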

How the data were processed

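The assay was single-cell RNA sequencing with a 10x Genomics 3′ kit, per the labels' protocols. The deposited files give raw UMI counts for every gene in every barcode, empty droplets included. Cell Ranger 8.0.1 and GRCm39 are named in the file headers and in the submitters' processing notes. Neither the annotation release nor the counting of intronic reads is given in the sources used here. The libraries hold 103383215 UMIs (E11.5), 94155624 (E12.5) and 113402193 (E13.5).

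Barcodes with at least 4000 UMIs and at most 10% mitochondrial UMIs were kept. Scrublet, run on each library in scanpy 1.11.5, marked 2.92, 2 and 2.55% of barcodes as doublets, which were removed. A cell joined a class when it held at least 3 of the class's 6 markers and more than of any other class. Mesenchymal ties, and cells below 3 in every class with at least 2 of Pdgfra, Prrx1, Prrx2, Twist1, Osr1 and Meox2, were remaining mesenchyme, and 7.39, 6.83 and 11.4% of cells stayed unassigned. UMIs were summed by class and stage with numpy 2.4.6 and scipy 1.17.1. Intervals are exact: Poisson for levels, conditional binomial for ratios, Clopper-Pearson for shares. Shares of cells with a UMI were taken after thinning each cell to 4000 UMIs. Genes entered a stage or class comparison with at least 50 UMIs over both groups, and a difference was counted at 2-fold after adding 0.5 UMIs to each sum. Log2 ratios carry a later stage over an earlier one, or a class over the other cells of its library. Droplets of 50 to 500 UMIs gave the free RNA profile. Stage ratios of remaining mesenchyme and their intervals were tested on simulated Poisson counts. Those counts vary by counting error only, so the test cannot show how the intervals cover differences between libraries or cells.

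The collagens, the classes and the gene lists were chosen with earlier results of these data known. A collagen is described with values where it reaches 25 CPM in a class and stage, and in stage comparisons up to 10 past 2-fold are named in each direction. Values are also given for some that stayed below 25 CPM, such as Col7a1 and Col28a1. Counts past 2-fold were computed in all classes. The classes whose counts are given (3 between stages, 5 against other cells) were chosen after their values were seen. Counts of remaining mesenchyme and of dermal and fascia cells against other cells were added beside those of meningeal cells.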

Additional observations from a re-analysis of the deposited data

Results flagged for a closer look

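The results here are collagens that differed by at least 2-fold in opposite directions in 2 classes between the same stages, with both intervals excluding 0. With 1 library per stage the difference between the classes was not tested. Some sums are small: Col8a1 had 11 UMIs in epidermis at E12.5. Col9a1 had 13 UMIs in myocytes at E11.5 and 17 in Schwann and neural crest cells at E12.5. At E12.5, Col9a1 in Schwann and neural crest cells and in myogenic progenitors was below its level in droplets without a cell. Col2a1 in epidermis at E12.5 was also below its level in those droplets. Col18a1 was higher at E12.5 than E11.5 in meningeal cells (179.7 and 59.4 CPM) and lower in myocytes (4.77 and 38.8 CPM), a difference of 4.62 on the log2 scale. Col9a1 was higher at E12.5 than E11.5 in myocytes (30.7 and 8.85 CPM) and lower in meningeal cells (56.9 and 313.3 CPM), a difference of 4.25. Col9a1 was higher at E13.5 than E12.5 in Schwann and neural crest cells (41.1 and 13.3 CPM) and lower in myogenic progenitors (3.62 and 13.4 CPM), a difference of 3.51. Col2a1 was higher at E12.5 than E11.5 in neural progenitors (80.1 and 38.9 CPM) and lower in epidermis (16.1 and 80.7 CPM), a difference of 3.37. Col9a3 was higher at E13.5 than E12.5 in Schwann and neural crest cells (48.9 and 16.4 CPM) and lower in dermal and fascia cells (8.07 and 20.6 CPM), a difference of 2.93. Col4a1 was higher at E12.5 than E11.5 in Schwann and neural crest cells (236.3 and 100.9 CPM) and lower in neural progenitors (1.31 and 3.88 CPM, with 5 and 54 UMIs), a difference of 2.79. Col8a1 was higher at E13.5 than E12.5 in epidermis (16.9 and 7.7 CPM) and lower in meningeal cells (24.5 and 70.5 CPM), a difference of 2.66. Col7a1 was higher at E13.5 than E12.5 in dermal and fascia cells (16.2 and 7.89 CPM) and lower in epidermis (6.21 and 14.7 CPM), a difference of 2.28.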

How the results depend on the processing

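No paired analysis was possible because each stage has 1 library. The counts of collagens past 2-fold were recomputed with other cell filters, class rules, scalings, UMI minimums and free RNA subtraction. For remaining mesenchyme they lay between 17 and 26 (reported 19) for higher at E12.5 than E11.5 and between 7 and 11 (reported 8) for higher at E13.5 than E12.5. The count lower at E13.5 than E12.5 moved to 2 with median ratio scaling. In dermal and fascia cells the count lower at E13.5 than E12.5 moved to 2 with markers counted in thinned cells, and to 2 where Xist was required and Y-linked UMIs were barred. In Schwann and neural crest cells, with no UMI minimum, 27 were higher and 1 lower at E12.5 than E11.5, and 12 higher and 4 lower at E13.5 than E12.5. The count lower at E13.5 moved to 1 with 4 of 6 markers, to 1 with markers in thinned cells and to 1 with a per-cell mean, which also moved the count higher than in other cells at E11.5 to 6. For the other counts recomputed, including 21 to 25, 22 to 24 and 11 to 15 in meningeal cells, none moved by more than 1.5 times. The counts of remaining mesenchyme and of dermal and fascia cells against other cells were not recomputed.

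Over all alternatives, 1133 of 7561 recomputed log2 ratios, 1356 of 4797 levels, 375 of 1685 shares by type, 265 of 4199 shares of cells and 195 of 2003 chain ratios left their counting interval, so intervals understate the uncertainty. A further 7 log2 ratios changed sign. With free RNA subtracted by haemoglobin in neurons, Col1a2 in neural progenitors became −6.08 and Col1a1 in epidermis −3.96 (E12.5 over E11.5). With free RNA subtracted by mesenchymal markers in macrophages, Col1a1 in myocytes became −1.64 (E13.5 over E12.5). In cells with Xist alone, Col1a2 in neural progenitors became −0.0436 (E12.5 over E11.5) and Col9a3 in dermal and fascia cells 0.771 (E13.5 over E12.5). With doublets kept, Col1a2 in epidermis became 0.187 (E13.5 over E12.5), and with 4 of 6 markers Col7a1 in dermal and fascia cells over other cells at E13.5 became −0.457. For these the cause was not tested. The macrophage marker estimate of free RNA (16.1, 11.9 and 13.1% of the UMIs) and the Xist restriction were chosen after seeing the data. The haemoglobin estimate (2.16, 30.5 and 47.8%) exceeded, at the later stages, the 20.1% and 31% that the collagen level of neurons made up of that of droplets, so it subtracts more collagen than neurons held. Depth limits the rarest chains: at E11.5 Schwann and neural crest cells held 24 Col1a1 UMIs.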

Other observations

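Mesothelium, the lining of the body cavity, was reported at E11.5 alone (77 cells). It held 786.6 CPM of Col1a1, the highest level of any class at that stage, with 581.4 CPM of Col1a2 and 682.9 CPM of Col3a1. Col18a1 had 130.2 CPM and Col5a2 134.7 CPM there, whereas Col4a1 had 16.1 CPM.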
